A study of Mus musculus with 6 samples.

Results

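Cxcl12, its signalling receptor Cxcr4 and its atypical receptor Ackr3 were followed in bulk-seq of mouse spinal cord. The 3 genes were taken by name from the 25576 genes listed in at least 1 library. Cxcl12 was selected on its measured values, because it was lower in SMA mice in this same comparison. Its difference is therefore described without a test, and the differences of both receptors are treated in the same way.

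SMA mice, a model of spinal muscular atrophy, were mSmn-/- and hSMN22tg/0, and control mice were mSmn+/- and hSMN22tg/0. Mice of both groups were of the FVB strain, and spinal cord was taken at postnatal day 4. Both groups carried the human SMN2 transgene, and the control mice were heterozygous for the Smn knockout and not wild type. There were 3 libraries of each group. The study's methods leave it unclear whether the triplicates came from separate animals, so p-values measure the spread between these libraries, which may be technical.

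Expression was given as FPKM, a count of fragments scaled to exon length and to sequencing depth, which allows levels of different genes to be set side by side. Read counts were not used here and depth in reads is unknown. Values below 0.15 FPKM gave a depth of 1 to 1.16 relative to SMA replicate 1. Between 21197 and 22296 genes were above 0 in a library. Smn1 was at 10.4, 8.64 and 11.9 FPKM in the control libraries (replicates 1, 2 and 3) and at 8.48, 9.30 and 11.1 FPKM in the SMA libraries. These ranges overlapped, so the values give no check of the genotype labels.

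Control replicate 2 stood apart from the other libraries. Across the 17088 genes whose mean reached 0.5 FPKM, its Pearson r with another library was 0.836 to 0.849, while r was at least 0.983 among the other 5. The 10 hepatocyte genes, with albumin (Alb) the most abundant, summed to 28299 FPKM in this library, which was 6.84% of its total, and to 45.7 to 96.7 FPKM in the others. All 10 were above 0 in every library. The 10 neuron genes were above 0 in every library as well, and summed to 795 FPKM in control replicate 2 and to 1456 to 1584 FPKM elsewhere. The log2 differences below are therefore given with and without control replicate 2.

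CXCL12 is a secreted chemokine that is held on heparan sulfate at cell surfaces and in the extracellular matrix. It signals through CXCR4, a receptor coupled to inhibitory G proteins that drives directed migration, and is taken up by ACKR3, which recruits arrestins and removes the ligand. In the nervous system the ligand is known from meninges and blood vessels, and the axis guides migrating neurons, precursor cells and motor axons. In bone marrow and fetal liver, CXCL12 retains blood-forming cells that carry CXCR4.

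The bases in front of each gene are shown so that a reader can compare the start regions directly. A link between these bases and the levels in the libraries was not tested. Each window holds the 250 bases before the RefSeq start of transcription on GRCm38.p6, read 5′ to 3′ on the strand of the gene. All 3 genes had a window. Capitals mark matches, on either strand, to the GC box (GGGCGG), the TATA box (TATAAA), the CCAAT box, and the letters ACGTG and also GCGTG, which are cores of the hypoxia response element. Matches may overlap, as TATAAA on opposite strands did in Cxcr4.
Cxcl12, chr6:117168285-117168534, plus strand: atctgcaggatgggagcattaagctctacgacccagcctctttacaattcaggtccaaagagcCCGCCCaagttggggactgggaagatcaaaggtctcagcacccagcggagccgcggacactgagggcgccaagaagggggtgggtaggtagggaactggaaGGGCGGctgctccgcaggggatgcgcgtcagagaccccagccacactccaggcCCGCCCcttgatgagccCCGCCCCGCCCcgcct
Cxcr4, chr1:128592300-128592549, minus strand: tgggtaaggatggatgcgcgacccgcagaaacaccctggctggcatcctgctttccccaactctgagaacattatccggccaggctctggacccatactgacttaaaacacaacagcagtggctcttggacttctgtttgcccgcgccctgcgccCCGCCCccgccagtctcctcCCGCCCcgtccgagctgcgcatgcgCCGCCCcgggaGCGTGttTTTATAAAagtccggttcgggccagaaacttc
Ackr3, chr1:90203730-90203979, plus strand: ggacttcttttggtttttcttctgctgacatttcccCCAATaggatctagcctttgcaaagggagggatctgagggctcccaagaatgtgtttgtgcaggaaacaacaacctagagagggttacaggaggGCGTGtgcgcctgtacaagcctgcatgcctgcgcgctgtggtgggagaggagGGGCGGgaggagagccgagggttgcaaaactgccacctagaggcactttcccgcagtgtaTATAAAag

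The Cxcl12 window had 64.4% G and C and 5 matches to the GC box, and none to the other motifs. The Cxcr4 window had 61.2% G and C, 3 matches to the GC box, TATAAA beginning 30 bases before the start, and 1 match to GCGTG. The Ackr3 window had 54% G and C with 1 match each to the GC box, the TATA box, the CCAAT box and GCGTG. Its TATAAA began 8 bases before the start, nearer than that of Cxcr4. The median of all 32851 windows of this length was 52.4% G and C. Of these windows 32.7% held GGGCGG, 12.4% TATAAA, 33.8% CCAAT, 16.6% ACGTG and 28.2% GCGTG. The matches describe these letters only.

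Cxcl12 was lower in all 3 SMA libraries than in any control library. The gene (ENSMUSG00000061353) lies on the plus strand of chromosome 6 from 117168535 to 117181367 in mm10, overlaps no other gene in GENCODE M21 and has 3 coding transcripts, which gene-level values do not separate. It was at 9.23, 34 and 13.9 FPKM in the control libraries (replicates 1, 2 and 3) and at 8.57, 5.48 and 5.02 FPKM in the SMA libraries. Control replicate 2 was far above the rest, and the nearest libraries of opposite groups, control replicate 1 and SMA replicate 1, lay closer together than the SD of either group.

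The mean of Cxcl12 was 19.0 ± 13.2 FPKM (SD, n = 3) in control mice and 6.36 ± 1.93 FPKM (SD, n = 3) in SMA mice, a ratio of 3.00. Without control replicate 2 the control mean was 11.6 ± 3.30 FPKM (SD, n = 2) and the ratio 1.82. On the log2(FPKM + 1) scale, SMA minus control was -1.28 ± 0.45 (SE) with 6 libraries and -0.78 ± 0.23 (SE) without control replicate 2. Control libraries all lay above SMA libraries for 1140 of 17088 genes (6.67%), and for 2302 of 16574 (13.9%) without control replicate 2. SMA libraries all lay above controls for 10.3% and 14.2%. Nothing is read from this for Cxcl12, which was selected on the contrast.

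Cxcr4, the receptor through which CXCL12 signals, overlapped between the groups. The gene (ENSMUSG00000045382) lies on the minus strand of chromosome 1 from 128588199 to 128592293 and overlaps no other annotated gene. It was at 6.66, 10.9 and 7.12 FPKM in the control libraries (replicates 1, 2 and 3) and at 8.65, 6.30 and 7.09 FPKM in the SMA libraries. Control replicate 2 was the highest and SMA replicate 1 came next, and the other 4 libraries lay between 6.30 and 7.12 FPKM. The means were 8.22 ± 2.32 FPKM (SD, n = 3) in control mice and 7.35 ± 1.20 FPKM (SD, n = 3) in SMA mice. SMA minus control was -0.13 ± 0.20 (SE, log2 scale), and it changed sign to 0.07 ± 0.13 without control replicate 2. Neither difference exceeded its error.

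Ackr3, the scavenging receptor, was the least abundant of the 3 genes. The gene (ENSMUSG00000044337) lies on the plus strand of chromosome 1 from 90203980 to 90216751 and overlaps no other annotated gene. It was at 1.26, 1.09 and 1.52 FPKM in the control libraries (replicates 1, 2 and 3) and at 1.13, 1.20 and 1.23 FPKM in the SMA libraries. The groups overlapped because control replicate 2 was the lowest of the 6 libraries. The means were 1.29 ± 0.22 FPKM (SD, n = 3) and 1.18 ± 0.05 FPKM (SD, n = 3). SMA minus control was -0.06 ± 0.15 (SE, log2 scale) with 6 libraries and -0.13 ± 0.14 without control replicate 2, and after quantile normalization it was 0.02. When control replicate 2 was left out, both controls lay above the SMA libraries, yet the difference was within its error.

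**Figure D1:**
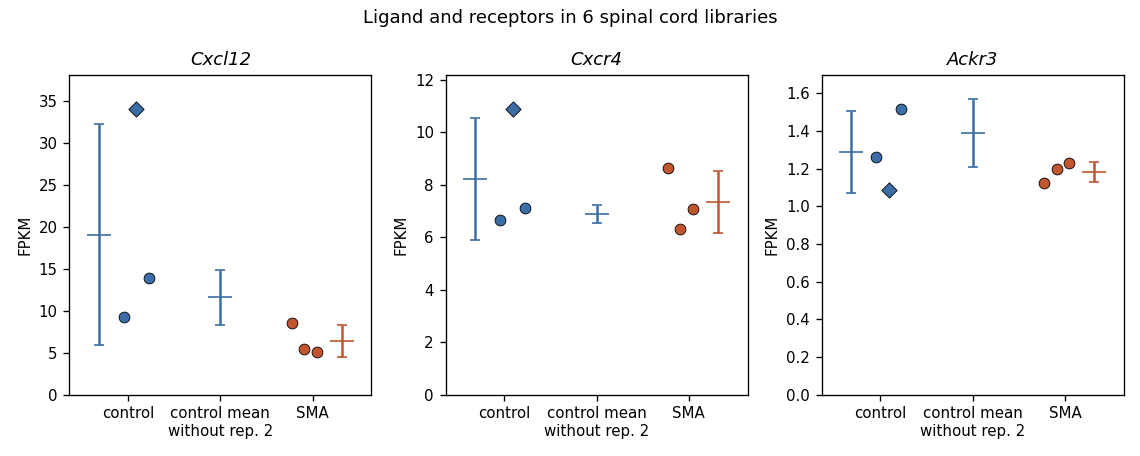
FPKM of Cxcl12, Cxcr4 and Ackr3 in each library, with control mice in blue, SMA mice in orange and control replicate 2 as a diamond. Horizontal marks with bars give the mean ± SD of each group (n = 3) and of the controls without replicate 2 (n = 2). The SMA libraries lie below all controls for Cxcl12, at 5.02 to 8.57 FPKM, and overlap with them for Cxcr4.

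Ligand and receptor levels were then set against each other within each library, a comparison chosen after the values were seen. Cxcl12 over Cxcr4 was 1.39, 3.12 and 1.95 in the control libraries and 0.99, 0.87 and 0.71 in the SMA libraries. Ligand FPKM thus exceeded Cxcr4 FPKM in every control library and in no SMA library. Cxcl12 was selected on this contrast, so the separation in part repeats that selection, and nothing is read from it. Cxcr4 over Ackr3 was 4.69 to 10.03 in control mice and 5.26 to 7.68 in SMA mice, and these ranges overlapped. Cxcl12 over Ackr3 overlapped too, with 7.31 in control replicate 1 and 7.61 in SMA replicate 1.

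Among 35 listed chemokine ligands, Cxcl12 ranked 1 in control replicate 2 and 4 in all others but control replicate 3, where it ranked 3. Its share of the summed ligand FPKM was 9.44%, 20.8% and 13.1% for controls and 8.86%, 5.27% and 4.997% for SMA mice, by replicate number. Among 22 listed chemokine receptors, Cxcr4 ranked 3 in 5 libraries and 2 in control replicate 2. Ackr3 ranked 5 or 6 in the libraries other than control replicate 2, where it ranked 9. These ranks and shares rest in part on Ackr1, Ccl27a and Ccl25, whose exons overlap other genes, as given below.

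Markers of blood vessels were summed in the same libraries. The 10 endothelial genes summed to 68.1, 95.9 and 82.5 FPKM in the control libraries and to 60.7, 48.3 and 52.8 FPKM in the SMA libraries, each in the order of replicate number. The sums did not overlap, none of the genes was at 0 in any library, and Cldn5, a tight junction protein, had the highest mean. All 10 had a log2 difference below 0, and 6 of 10 (Cldn5, Emcn, Kdr, Pecam1, Tek and Tie1) were lower at an unadjusted p under 0.05 in limma, against 2.39% of all genes. The groups overlapped for the other 4 (Cdh5, Egfl7, Esam and Flt1), and 0 of 10 passed at an adjusted p under 0.05. The median log2 difference of the list was -0.54, against 0.04 over all 17088 genes. Without control replicate 2 it was -0.40 against 0.00, and the same 6 genes passed, where 5.20% of all genes were lower. The count was 3 without SMA replicate 2 and 3 without SMA replicate 3.

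Over all genes tested, 409 (2.39%) were lower and 581 (3.40%) higher in SMA mice at an unadjusted p under 0.05. The counts were 862 of 16574 (5.20%) and 874 (5.27%) without control replicate 2. The split moved with scaling, to 386 lower and 338 higher after rescaling to the same total, 565 lower and 528 higher after median ratio scaling, and 337 lower and 639 higher after quantile normalization. With a fold over 2 in addition, 17 genes (0.0995%) were lower and 12 (0.0702%) higher, and 7 (0.0422%) and 16 (0.0965%) without control replicate 2. These counts depend on the pseudocount, and with 0.1 in place of 1 they were 125 lower and 64 higher. The lower count was 78 without control replicate 1, 131 without control replicate 3, 34 without SMA replicate 1, 4 without SMA replicate 2 and 6 without SMA replicate 3, and the higher count was 28 without control replicate 1. At an adjusted p under 0.05, limma called 0 genes (0%) with 6 libraries. It called 2 genes (0.0121%) without control replicate 2, the small RNA genes Snora74a and Rpph1, both higher in SMA mice and named here after their values were seen.

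Cldn5 was at 25.8, 20.4 and 25.0 FPKM in the control libraries (replicates 1, 2 and 3) and at 16.4, 15.7 and 14.4 FPKM in the SMA libraries. Its log2 difference was -0.58 ± 0.12 (SE; limma adjusted p = 0.683), and -0.68 ± 0.08 without control replicate 2 (adjusted p = 0.108). Kdr, a receptor for vascular endothelial growth factor, was at 9.01 to 14.3 FPKM in control mice and 6.36 to 8.83 FPKM in SMA mice. Egfl7, secreted by endothelial cells, was at 7.86 to 23.6 FPKM and 9.62 to 12 FPKM, with overlapping groups and exons that overlap Gm20532 on the same strand.

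Cxcl12 divided by the endothelial sum was 0.136, 0.355 and 0.168 in the control libraries and 0.141, 0.113 and 0.0950 in the SMA libraries. This ratio, also chosen after the values were seen, overlapped between the groups through SMA replicate 1. Cxcl12 over Pecam1 overlapped too, with 1.78 in control replicate 1 against 1.89 and 1.88 in SMA replicates 1 and 2. In bulk tissue, fewer cells of a type and less RNA per cell cannot be told apart. The part of vessel content in the level of Cxcl12 was not tested.

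The 9 pericyte and smooth muscle genes summed to 47.5, 54.6 and 59.8 FPKM in the control libraries and to 46.7, 38.3 and 40.5 FPKM in the SMA libraries, each in the order of replicate number. Of the 8 tested, 4 were lower at an unadjusted p under 0.05 (Abcc9, Acta2, Myl9 and Rgs5), and 3 of these without control replicate 2, against 2.39% and 5.20% of all genes. The count was 2 without control replicate 3 and 1 without SMA replicate 2 or SMA replicate 3. Rgs5, the most abundant, was at 17.2 to 24.6 FPKM in control mice and 13.6 to 15.9 FPKM in SMA mice, with a log2 difference of -0.39 ± 0.15 (SE; limma adjusted p = 0.683), and -0.48 ± 0.13 without control replicate 2 (adjusted p = 0.350).

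Meningeal and perivascular fibroblast genes varied strongly within the SMA group. Their 9 genes summed to 184, 199.9 and 165 FPKM in the control libraries and to 197, 85.3 and 43.2 FPKM in the SMA libraries, each in the order of replicate number. Col1a2, a fibrillar collagen chain, had the highest mean and none was at 0. Of the 9 tested, 1 (Lum) was lower at an unadjusted p under 0.05, and 1 (Aldh1a2) without control replicate 2, against 2.39% and 5.20% of all genes. The median log2 difference was -1.03 with 9 of 9 below 0, and -0.72 with 8 of 9 below 0 without control replicate 2. SMA replicate 1, with the highest Cxcl12 of its group, also had the highest fibroblast sum of its group, and SMA replicate 3 had the lowest of both. The 6 Schwann cell genes had the same order within the SMA group, with 115, 124 and 226 FPKM for controls and 170, 68.7 and 8.35 FPKM for SMA mice, by replicate number. The part of meninges or nerve roots in the Cxcl12 level was not tested.

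Control replicate 2, where Cxcl12 was highest, held high levels of liver and blood genes. The 9 liver sinusoidal endothelial genes in the files (Stab1 had the highest mean over 6 libraries) summed to 66.2 FPKM in it and to 5.58 to 9.77 FPKM in the other libraries. The 6 Kupffer cell genes, led by Marco, summed to 40.7 FPKM against at most 0.669 FPKM elsewhere, and the 5 hepatic stellate genes (Ecm1 had the highest mean) to 17.9 FPKM against 1.98 to 3.25 FPKM. Erythroid genes, led by the globin Hbb-bs, summed to 18864 FPKM against 1115 to 1863 FPKM. Neutrophil genes, led by S100a8, summed to 437 FPKM against 6.66 to 13.2 FPKM. The part of these cells in the Cxcl12 and Cxcr4 levels of this library was not tested.

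**Figure D2:**
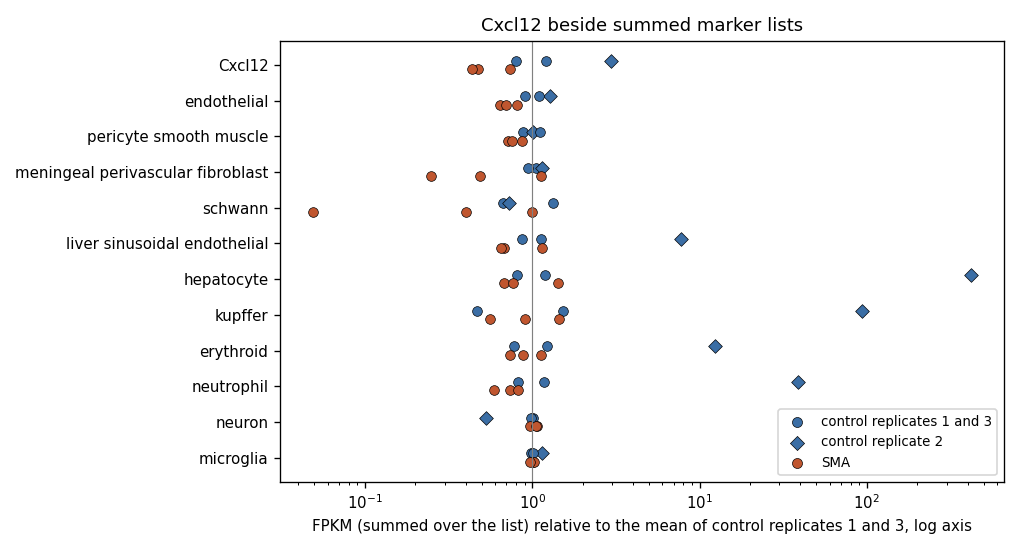
Cxcl12 FPKM and the summed FPKM of 11 marker lists in each library, divided by the mean of control replicates 1 and 3, on a log axis; control mice are blue, SMA mice orange and control replicate 2 a diamond. Endothelial and pericyte sums are lower in all SMA libraries than in controls, and hepatocyte genes reach 28299 FPKM in control replicate 2.

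Of the genes that work with the ligand and its receptors, 58 of those listed were in the files and 54 were tested. At an unadjusted p under 0.05, 1 was lower (Mmp14) and 1 higher (Mif) in SMA mice. Both directions together are 3.7% of the 54, against 5.79% of all genes. Without control replicate 2, 50 were tested, with 2 lower (Cd74 and Mmp14) and 2 higher (Mif and Vav1), which is 8% against 10.5% of all genes. None had a fold over 2 at that p in either set. The median log2 difference of the 54 was 0.00 and that of all genes 0.04, and without control replicate 2 they were -0.02 and 0.00. Leaving out control replicate 3 gave 7 lower and 2 higher genes, leaving out control replicate 1 gave 3 higher genes, leaving out SMA replicate 1 gave 3 lower genes, and leaving out SMA replicate 2 or 3 gave 0 lower genes.

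Mif, a cytokine that also binds CXCR4 and CD74, was at 105, 104 and 99.0 FPKM in the control libraries (replicates 1, 2 and 3) and at 134, 128 and 140 FPKM in the SMA libraries. The groups did not overlap, and the log2 difference was 0.38 ± 0.09 (SE; limma adjusted p = 0.683) and 0.39 ± 0.06 without control replicate 2 (adjusted p = 0.221). Mif has processed pseudogenes of near identical sequence, so its value is uncertain. Hmgb1, which forms a complex with CXCL12, was at 40.6 to 51.4 FPKM with overlapping groups. Cxcl11, a further ligand of ACKR3, was at 0.0883 FPKM or less and was not tested.

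Cd74, the invariant chain of MHC class II and a receptor for MIF, was at 1.64, 9.90 and 1.16 FPKM in the control libraries (replicates 1, 2 and 3) and at 0.708, 0.694 and 0.852 FPKM in the SMA libraries. It was lower in all SMA libraries. Its log2 difference was -1.18 ± 0.58 with 6 libraries (SE; limma adjusted p = 0.683), where it did not pass at an unadjusted p under 0.05, and -0.45 ± 0.16 without control replicate 2 (adjusted p = 0.418), where it did. Ackr1, a chemokine-binding receptor of red cells and venules, was at 18.8 to 26.5 FPKM, but its exons overlap Cadm3 on the same strand and the value is uncertain. Ackr2, a scavenger of inflammatory chemokines, was at 0.484 to 1.72 FPKM with overlapping groups.

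Of the genes that couple or desensitize the receptors, 0 of 11 passed in either direction with or without control replicate 2. Of all genes, 5.79% passed with it and 10.5% without it. Gnb1, a G protein beta subunit, had the highest mean, at 172 FPKM in control replicate 2 and 254 to 278 FPKM elsewhere. Gnai2, an inhibitory alpha subunit, was at 53.1 to 66.1 FPKM, and Arrb1, an arrestin, at 41.2 to 54.8 FPKM. Of 16 effectors tested 0 passed with 6 libraries and 1 (6.25%) without control replicate 2. Cdc42 and Rac1, which steer the actin cytoskeleton, were at 170 to 235 FPKM and 80.1 to 98.2 FPKM. Vav1, an exchange factor of blood cells and microglia, was at 2.47 FPKM in control replicate 2, at 0.601 and 0.613 FPKM in the other controls and at 1.20 to 1.29 FPKM in SMA mice. Its log2 difference was 0.48 ± 0.14 without control replicate 2 (SE; limma adjusted p = 0.361), and 0.11 ± 0.32 with it.

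Of the 8 listed proteases that can cleave CXCL12, 1 passed in both sets of libraries, where 5.79% and 10.5% of all genes passed. Their median log2 difference was -0.52 with 8 of 8 below 0, against 0.04 over all genes. Without control replicate 2 it was -0.23 with 4 of 4 below 0, against 0.00 over all genes. Mmp14, a membrane-bound metalloproteinase, was at 20.6, 25.6 and 21.4 FPKM in the control libraries (replicates 1, 2 and 3) and at 19.5, 17.1 and 15.4 FPKM in the SMA libraries. The groups did not overlap, and the log2 difference was -0.36 ± 0.13 (SE; limma adjusted p = 0.683) and -0.27 ± 0.10 without control replicate 2 (adjusted p = 0.437). Mmp2 was at 2.76 to 5.90 FPKM with overlapping groups. Cpn1, a plasma carboxypeptidase made in liver, was at 25.1 FPKM in control replicate 2 and at 0.0654 FPKM or less in the other libraries. With that library left out, only 4 of the 8 reached the minimum level for testing, since Cpn1, Ctsg, Dpp4 and Elane did not.

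Heparan sulfate genes hold the ligand at cell surfaces, and 0 of 14 passed in either set of libraries, against 5.79% and 10.5% of all genes. Sdc3, a syndecan of neurons, had the highest mean, at 69.96 FPKM in control replicate 2 and 99.9 to 108 FPKM elsewhere. Gpc1 was at 40.8 to 61.7 FPKM, and Ndst1, a sulfotransferase, at 31.4 to 35.8 FPKM. Other members of the list were high in control replicate 2 and are named after their values were seen. Sdc4 was at 82.6 FPKM there and 11.7 to 22.3 FPKM elsewhere, and Sdc1 was at 22.9 FPKM there and 1.01 to 2.5 FPKM elsewhere.

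**Figure D3:**
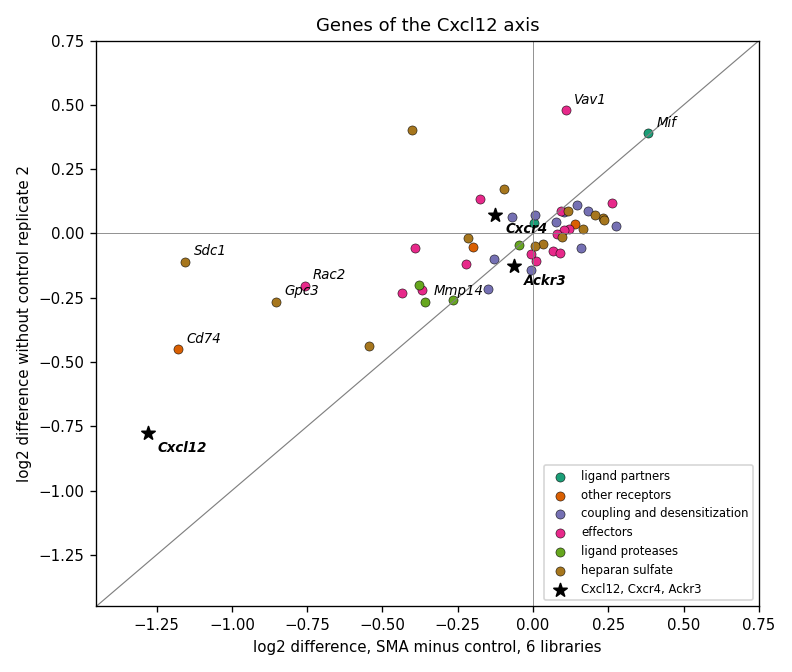
Log2 difference, SMA minus control, of 50 genes of the Cxcl12 axis and of the 3 genes followed here, with 6 libraries on the x axis and without control replicate 2 on the y axis. Colours give the role of each gene, stars mark Cxcl12, Cxcr4 and Ackr3, and the diagonal marks equal differences. Cxcl12 moves from -1.28 to -0.78, and Mif lies near the diagonal at 0.38 and 0.39.

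The list of other chemokines and their receptors is not complete, and 18 of its 43 genes in the files reached the minimum for testing. Of these, 0 were lower and 1 (Ccl27a) was higher at an unadjusted p under 0.05, which is 5.56% against 5.79% of all genes in both directions, with a median log2 difference of -0.09 over the 18 and of -0.58 over the 6 CXC and CX3C ligands among them. Without control replicate 2, 14 were tested with the same counts (7.14%, against 10.5% of all genes) and a median of -0.01, or -0.19 over the 4 CXC and CX3C ligands tested. The count of higher genes was 0 without control replicate 1 and 0 without SMA replicate 1, 2 or 3. It was also 0 after rescaling to the same total, quantile normalization or median ratio scaling. The log2 difference of Ccl27a under these scalings was 0.26, 0.19 and 0.18. Without control replicate 3, 1 gene was lower. Ccl21a, a chemokine that the list leaves out, would have added 1 lower gene in both sets of libraries, with a log2 difference of -0.90 ± 0.21 (SE; limma adjusted p = 0.683), and -0.89 ± 0.20 without control replicate 2 (adjusted p = 0.2999). Ccl27a was at 31.5 to 34.8 FPKM in control mice and 36.8 to 40.8 FPKM in SMA mice, with a log2 difference of 0.23 ± 0.09 (SE; limma adjusted p = 0.683), and 0.20 ± 0.07 without control replicate 2 (adjusted p = 0.410). It has near identical copies and overlaps Il11ra1 on the other strand, so its value is uncertain.

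Among the CXC and CX3C ligands, Cx3cl1, a membrane-bound ligand of neurons, was at 16.7 FPKM in control replicate 2 and 27.9 to 35.6 FPKM elsewhere. Pf4 and Ppbp, both stored in platelets, were at 17.6 and 23.9 FPKM in control replicate 2. In the other libraries Pf4 was at 0.423 to 2.60 FPKM and Ppbp at 0.0648 to 0.457 FPKM. Ccl25 was at 9.34 to 11.6 FPKM, but it overlaps Elavl1 on the other strand. Ccl9 was at 11.2 FPKM in control replicate 2 and at 0.382 to 1.83 FPKM elsewhere.

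Among the other receptors, Cx3cr1, which marks microglia, was at 8.27 to 11.2 FPKM, and Ccr1 was at 0.289 to 0.986 FPKM. The groups overlapped for both. The 8 microglial genes summed to 85.4 to 101 FPKM and overlapped between the groups.

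**Figure D4:**
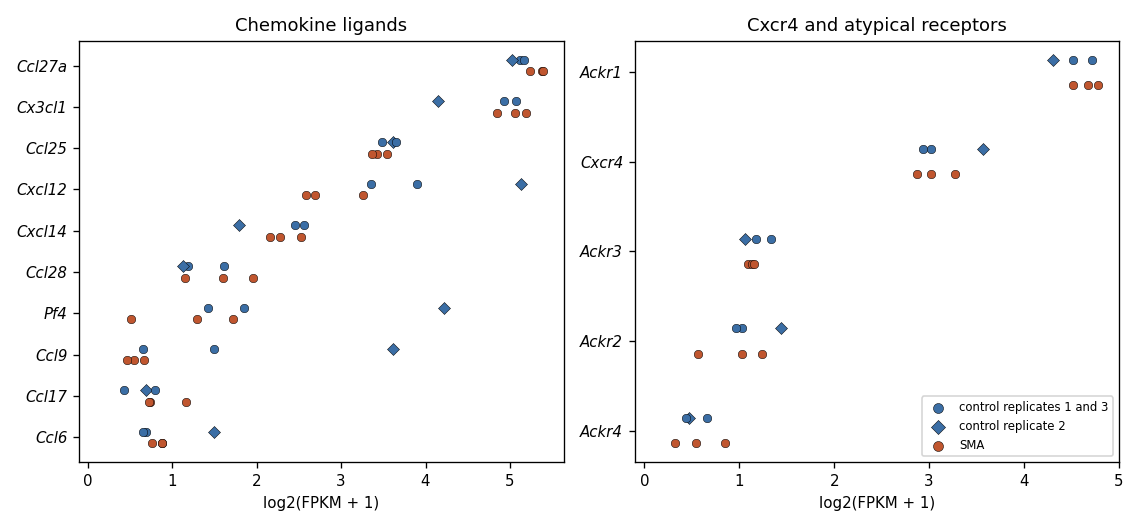
Levels of the 10 chemokine ligands with the highest mean FPKM without control replicate 2, and of Cxcr4 and the atypical receptors Ackr1 to Ackr4, as log2(FPKM + 1) in each library; control mice are blue, SMA mice orange and control replicate 2 a diamond. Cxcl12 is the ligand with 34 FPKM in control replicate 2, and its SMA libraries lie below its controls.

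Cxcl12 and Cxcr4 are known to rise in hypoxia, so a list of hypoxia response genes was set beside them. Of 10 tested, 2 were lower (Bnip3 and Egln3) and 0 higher at an unadjusted p under 0.05, with and without control replicate 2, where 2.39% and 5.20% of all genes were lower. The count of lower genes was 0 without SMA replicate 1, 0 without SMA replicate 2 and 1 without SMA replicate 3. The median log2 difference was -0.17 with 6 libraries and -0.05 without control replicate 2. Bnip3, which acts in mitophagy, was at 31.3 to 33.5 FPKM in control mice and 27.5 to 27.9 FPKM in SMA mice, with a log2 difference of -0.23 ± 0.08 (SE; limma adjusted p = 0.683), and -0.22 ± 0.06 without control replicate 2 (adjusted p = 0.358). Egln3, a prolyl hydroxylase that acts on hypoxia-inducible factor, was at 4.52 to 5.02 FPKM and 3.27 to 3.85 FPKM, with a log2 difference of -0.35 ± 0.11 (SE; limma adjusted p = 0.683), and -0.38 ± 0.12 without control replicate 2 (adjusted p = 0.366). The groups did not overlap for either gene. After rescaling to the same total 0 of these genes were lower, and after quantile normalization 1. The log2 differences were then -0.20 and -0.27 for Bnip3 and -0.33 and -0.26 for Egln3. Ldha was at 289 FPKM in control replicate 2 and 109 to 122 FPKM elsewhere, and Pgk1 at 100.3 to 108 FPKM throughout.

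Genes with a similar profile were sought by the root mean square difference of log2(FPKM + 1), centred on each gene's own mean. Over 6 libraries, the 5 genes closest to Cxcl12 among 17088 were Llgl2 (0.193), Emilin1 (0.217), Hmmr (0.222), Uhrf1 (0.226) and C130074G19Rik (0.230). Each was highest in control replicate 2, and Llgl2 was at 4.08 FPKM there and 0.103 to 1.11 FPKM elsewhere. Over the 5 libraries without it, the closest among 16574 were Aldh1a2 (0.0846), Myl9 (0.10), Ccl21a (0.108), Tek (0.130) and Adgre5 (0.137). None of the genes was in both sets of 5. Leaving out other libraries was not tried. Cxcl12 itself spread by 0.853 around its mean over 6 libraries and 0.476 over 5, and 5887 and 7034 genes lay within those distances.

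Aldh1a2, a retinoic acid synthesizing enzyme of meninges, had 10.1 and 13.7 FPKM in control replicates 1 and 3, against 8.60, 5.59 and 5.94 FPKM in the SMA libraries. It was at 4.97 FPKM in control replicate 2, where Cxcl12 was highest. Tek, the endothelial receptor for angiopoietins, had 2.41 and 3.95 FPKM in control replicates 1 and 3, against 2.00, 1.64 and 1.14 FPKM in the SMA libraries, and 5.33 FPKM in control replicate 2. The values of Ccl21a are uncertain because the gene has near identical copies.

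The genes closest to Cxcr4 were Snx7 (0.0400), Plpp5 (0.0412) and H2afj (0.0462) over 6 libraries and Kif7 (0.0169), Dph2 (0.0211) and Tob1 (0.0271) over 5. For Ackr3 they were Mief1 (0.0141), Nktr (0.0237) and Emb (0.0269) over 6 libraries, and Mief1 (0.0141) was also the closest over 5. The receptors varied little, with a spread of 0.240 for Cxcr4 and 0.0869 for Ackr3 over 6 libraries, and 3288 and 877 genes lay within those distances.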

How the data were processed

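Bulk-seq of spinal cord was analysed in 6 libraries, grouped by the genotype in the labels. Ribosomal RNA was removed and libraries were strand-specific, and the authors deposited FPKM per gene for each library. Per the labels, HISAT2, Cufflinks and mm10 were used in processing, and their versions are not given in the sources used here. A gene absent from a file was set to 0 FPKM.

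Values were transformed to log2(FPKM + 1), which understates the change of low genes, and genes whose mean reached 0.5 FPKM were compared between SMA and control mice. limma 3.58.1 in R 4.3.3 was used (lmFit and eBayes with trend, two-sided, Benjamini-Hochberg adjustment over all genes tested), and repeated without control replicate 2 with the minimum applied anew. The study describes a test on counts, which the FPKM do not allow. The procedure was tested on simulated data. Their spread was that of the libraries without control replicate 2, so the spread which that library adds was not covered. The study's DEG thresholds, an unadjusted p under 0.05 and a fold over 2, were kept as 1 of the call rules. The 3 genes were part of this fit and of its counts over all genes, but no p is given for them, and lists are described by counts and medians.

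Named genes were those of each pathway list with an unadjusted p under 0.05 (at most 5) and the 3 with the highest mean FPKM, the marker genes with the highest mean, and the genes closest in profile to each of the 3. Some genes that these rules pick are not reported here. Members and the 30 gene lists were chosen with earlier results of these data known. Alternatives were a pseudocount of 0.1, no minimum, a minimum of 1, leaving out each library, a block for replicate number, robust eBayes, and scaling by median ratios, by quantiles or to equal totals. The ratios to Cxcr4, Ackr3, endothelial genes and Pecam1, and the repeats for endothelial and pericyte genes, were added after seeing the data.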

Additional observations from a re-analysis of the deposited data

How the results depend on the processing

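The log2 difference of Cxcl12 was -1.39 to -1.26 under the alternatives that kept all 6 libraries and -1.67 to -0.78 with 1 library left out. That of Cxcr4 was -0.25 to 0.07 and that of Ackr3 -0.13 to 0.01 with 1 library left out. With a pseudocount of 0.1, 125 genes were lower and 64 higher at the DEG thresholds, and 2 axis genes were lower. After rescaling to the same total, 0 chemokine genes were higher and 0 hypoxia genes lower; after quantile normalization, 0 and 1. After median ratio scaling and with robust eBayes, 0 chemokine genes were higher. The cause was not tested.

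Libraries of the same replicate number had correlations of deviations from their group means of -0.037, 0.016 and 0.077. Libraries of different numbers had -0.055 to 0.043. The deviations of controls include those of control replicate 2, so these values neither show nor exclude a pairing by number. With the replicate number as a block, 35 genes were lower at the DEG thresholds, 0 axis genes lower, 0 chemokine genes higher and 0 hypoxia genes lower, and the log2 difference of Cxcl12 was -1.28.

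With 1 library left out, 4 to 131 genes were lower and 12 to 28 higher at the DEG thresholds, and 0 to 2 genes passed an adjusted p under 0.05 in limma. Axis genes numbered 0 to 7 lower and 1 to 3 higher, chemokine genes 0 to 1 lower and 0 to 1 higher, and hypoxia genes 0 to 2 lower. Without control replicate 2 the controls had 2 libraries. Depth in reads is unknown, so no counting error can be given.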

Other observations

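Other cell types gave values that the text has not yet described. The 10 neuron genes had a median log2 difference of 0.34 with 6 libraries, where 0 passed at an unadjusted p under 0.05 (3.40% of all genes were higher). With 6 libraries, 4 were higher in all SMA libraries than in controls (10.3% of all genes). Without control replicate 2 the median was 0.04, and 3 were higher (Rbfox3, Slc32a1 and Syt1) against 5.27% of all genes. In that set 4 neuron genes were higher without overlap, against 14.2% of all genes, and 1 (Elavl4) was lower, against 13.9%. In that set 1 astrocyte gene was lower (Aqp4) and 1 higher (Agt), which is 25%, and 2 oligodendrocyte lineage genes were lower (Mag and Pdgfra), which is 20%, against 10.5% of all genes, and 9 of these 10 had a log2 difference below 0. With 6 libraries 0 genes of either list passed. The 8 astrocyte genes, of which Gfap had the highest mean, summed to 646 to 712 FPKM in control mice and 624 to 692 FPKM in SMA mice. The highest sum was in control replicate 2, where Agt, which liver also makes, was at 203 FPKM, against 23.9 and 23.6 FPKM in the other controls and 32.7 to 47.5 FPKM in SMA mice. The 10 oligodendrocyte lineage genes, led by Mbp, summed to 914, 854 and 1305 FPKM for controls and to 760.0, 909 and 939 FPKM for SMA mice, by replicate number, so control replicate 3 was the highest. Ependymal genes summed to 109 FPKM in control replicate 2 and 9.48 to 11.7 FPKM elsewhere. Rarres2, which liver also expresses, made up 101 FPKM of the sum in control replicate 2.

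Marrow stroma genes, led by Ebf3, summed to 73.3 to 81.7 FPKM in control mice and 84.7 to 86.1 FPKM in SMA mice without overlap. Ebf3, a transcription factor that spinal neurons also express, was at 30.6 to 51.2 FPKM in control mice and 56.5 to 57.1 FPKM in SMA mice. Vcam1, of the same list, went the other way, at 14.4 to 24.3 FPKM in control mice and 12.7 to 13.2 FPKM in SMA mice, and the median log2 difference of the 4 genes tested was -0.11 with 6 libraries and 0.00 without control replicate 2, so the sum follows Ebf3. Vcam1 and Agt are named after their values were seen. Genes of B cell precursors summed to 4.15 FPKM or less, of bone and cartilage to 5.73 FPKM or less, of skeletal muscle to 7.16 FPKM or less and of dorsal root ganglion to 5.29 FPKM or less, so each was low in every library.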
